A study of Arabidopsis thaliana with 4 samples.

Results

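A set of 4 protease genes of Arabidopsis thaliana were followed through a day of insect feeding: the aspartyl protease-type genes AT3G54400, AT1G66180 and AT1G03220 and the subtilase gene AT2G05920. Each is represented by 1 cDNA clone printed as 2 spots, and these 4 clones are among the 1182 clones on the array. Of the 1182, 415 carry a gene name here and 806 passed the filter on dim clones. The same 806 were tested without that filter, where usable values on at least 2 arrays sufficed. The genes were selected on their measured ratios in these same arrays, 3 because they were lower and 1 because it was higher in fed plants. The ratio of fed over untreated plants is therefore given as a description and is not tested, and all 4 clones passed the filter.

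Fed plants were exposed to western flower thrips (Frankliniella occidentalis), a small insect that pierces and empties leaf cells, for 2, 5, 10 or 24 h, and were set against untreated plants. All plants were wild type of the ecotype Columbia (Col-0), 21 days old, raised in soil at 22 °C with 16 h of light and 8 h of dark. Each fed plant, caged in an acrylic cylinder, received 25 adult females starved for 3 h. Above-ground tissue was taken, described in the labels both as leaves and as the whole plant without roots, and plants of replicate experiments were pooled before RNA extraction. One two-colour array per feeding time was used, with fed plants in the red dye Cy5 and untreated plants in the green dye Cy3 on all 4 arrays and no dye swap.

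Aspartyl proteases cut proteins with a pair of catalytic aspartates, and subtilases do so with a catalytic serine. Plants carry large families of both, and many members are secreted to the apoplast, the fluid space outside the plasma membrane, where they act in wall and surface protein turnover and in defence. AT1G03220 encodes a secreted aspartic protease known from Arabidopsis leaves infected with Pseudomonas bacteria, and AT1G03230, the next gene in the TAIR10.1 annotation, is its close relative. No clone named for AT1G03230 was on the array, and a cDNA clone may also take up signal from such a relative.

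Every array held 2560 spots. In the fed dye, the median usable clone spot read between 1325 and 2063 over a background of 181 to 336. In the untreated dye it read between 895 and 1150 over a background of 106 to 128. Ratios are on the log2 scale after loess normalization, which centres the clones about 0 at each brightness. A value below 0 thus means lower than the typical clone of similar brightness, on an array whose genes the study picked as stress-related. None of the 13 leaf mesophyll markers chosen for the tissue had a named clone, so the tissue could not be checked against them. Of 6 root markers, 4 had a named clone and 3 were tested. Their summed signal was 11.99, 12.15, 14.23 and 14.53 log2 in fed plants at 2, 5, 10 and 24 h, against 12.28, 11.73, 12.74 and 11.91 in untreated plants. This sum covers 2 markers at 2 h and 3 at the later times, and its part in the values below was not tested.

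The gene that was higher in fed plants was AT1G03220. At 2 h its spots read 2150 and 2151 scanner units in fed plants, above backgrounds of 182 and 180, against 738 and 731 in untreated plants, above backgrounds of 97 and 101. At 5 h the spots read 1770 and 1507 in fed plants, against 721 and 613 in untreated plants. Fed plants were the brighter at both early times. At 10 h they read 1620 and 1728 in fed plants, against 598 and 797 in untreated plants. At 24 h they read 1816 and 1577 in fed plants, against 761 and 639 in untreated plants. On every array both fed spots were brighter than both untreated spots, in units that still hold the difference between the dyes and their detector gains. After normalization the log2 ratio was 1.39, 0.67, 0.50 and 1.02 at 2, 5, 10 and 24 h. The paired spots had an SD of 0.02, 0.02, 0.32 and 0.08. AT1G03220 was thus highest at 2 h, 2.62-fold above untreated plants, and lowest at 10 h, where its spots also differed most, at 0.72 and 0.28. The mean was 0.89 ± 0.40 log2 (SD over the 4 arrays), a 1.86-fold higher level.

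AT3G54400 had the lowest ratios of the set. At 2 h its spots read 292 and 262 in fed plants, above backgrounds of 161 and 161, against 712 and 681 in untreated plants. At 5 h they read 298 and 336 in fed plants over backgrounds of 213 and 234, against 532 and 532 in untreated plants. The fed signal was thus faint from the first array on. At 10 h they read 356 and 368 in fed plants over backgrounds of 314 and 306, against 765 and 565 in untreated plants. At 24 h the 1 spot of good quality read 260 in fed plants over a background of 179, against 480 in untreated plants. Fed plants were not above background, by 2 background SD, at 5, 10 and 24 h, and at 2 h only 1 of 2 spots was, while untreated plants were above background at all times. The fed signal of AT3G54400 was therefore measured at 2 h only, where the ratio was -2.20 log2 (spot SD 0.28), or 4.58-fold lower. With the loess zero and the background correction used here, its bounds on the fold lower in fed plants were 3.59 at 5 h, 5.63 at 10 h and 4.05 at 24 h. Each bound sets the fed dye at its dimmest clone above background, or at the clone's own value where that is higher. It does not use the background limit of the spot itself. With no background correction the ratios were -1.93, -2.19 and -2.13 log2, and the 10 h bound did not hold under that setting. With all flags kept the ratios were -2.29 log2 at 10 h and -1.24 at 24 h, and neither bound held. The 24 h bound also failed with print-tip loess, at -1.03 log2, and with median centring, at -1.82. These bounds thus belong to the main settings and are not lower limits under all of them. In the main settings the measured ratios at 5, 10 and 24 h were -2.68, -3.14 and -2.80 log2. Because of the dim fed channel, the order of these 3 values carries no order of the transcript.

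In whole tissue, fewer cells that express a gene and less of its RNA per cell cannot be told apart, here and for the genes below.

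The subtilase gene AT2G05920 was lower in fed plants at every time with the loess zero. Its spots read 1216 and 1152 in fed plants at 2 h, against 3030 and 3027 in untreated plants. At 5 h they read 2244 and 2112 in fed plants, against 3616 and 3738 in untreated plants, and at 10 h 1305 and 988 in fed plants, against 3132 and 2728 in untreated plants. At 24 h they read 984 and 853 in fed plants, against 2415 and 1872 in untreated plants. Both dyes were above background on all arrays, and no fed spot reached the level of an untreated spot of its array. The log2 ratio was -1.57, -1.53, -2.05 and -1.66 at 2, 5, 10 and 24 h. The paired spots had an SD of 0.08, 0.09, 0.20 and 0.09. The mean was -1.70 ± 0.24 log2 (SD over the 4 arrays), or 3.26-fold lower, with a range over times of 0.52 log2. That range was 1.05 log2 relative to lambda DNA and 1.28 relative to alpha tubulin.

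AT1G66180 had the widest range over times of the 4 genes with the loess zero. Its spots read 882 and 921 in fed plants at 2 h, against 1136 and 1058 in untreated plants. At 5 h they read 2224 and 2937 in fed plants, against 3156 and 3701 in untreated plants, and at 24 h 1498 and 1266 in fed plants, against 3217 and 2242 in untreated plants. At 10 h they read 671 and 600 in fed plants over backgrounds of 508 and 472, against 1646 and 1672 in untreated plants, so that fed plants were not above background at this time alone. The log2 ratio was -0.51 at 2 h, -1.20 at 5 h, -2.98 at 10 h and -1.31 at 24 h. The paired spots had an SD of 0.12 to 0.15. These values span 2.47 log2. With the loess zero, the measured ratio of AT1G66180 at 10 h was 7.88-fold lower in fed plants. Its fed signal lay above the dimmest detected clone of the array but within 2 background SD, so this figure is not a lower limit. With no background correction the measured 10 h ratio was -2.14 log2. Its mean of -1.50 ± 1.05 log2 (SD over the 4 arrays) had the widest spread of the 4 genes.

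**Figure D1:**
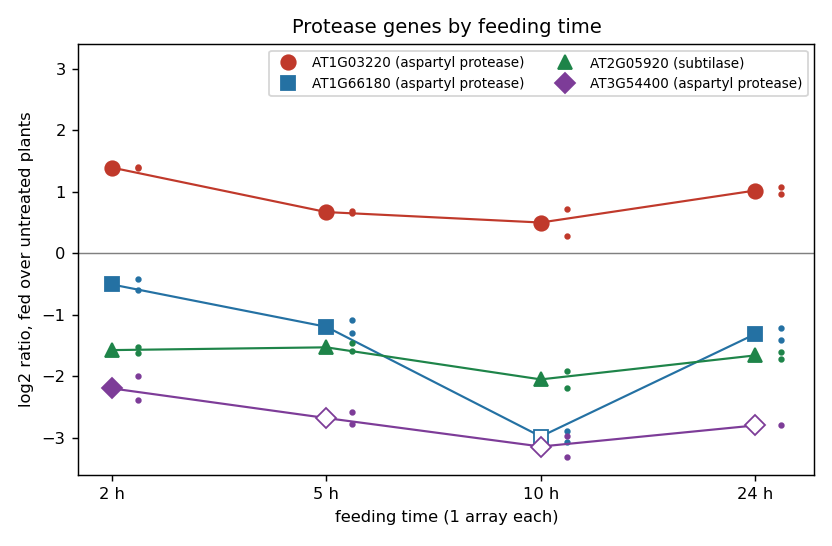
Log2 ratio of fed over untreated plants (vertical axis) for the 4 protease genes at each feeding time (horizontal axis, 1 array each). Large symbols are means over usable spots, small dots the single spots, and open symbols mark times at which fed plants were not above background; AT1G03220 stays above 0 at all times, and AT1G66180 lies at -2.98 at 10 h, next to AT3G54400.

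The dyes were then followed separately within each clone, after the arrays were brought to one distribution of mean brightness (Aquantile), which also removes differences in gain that act on all clones. These levels rest on 1 array per time and are given without a test. At 5 h the level of AT1G66180 stood above its 2 h level in both dyes, by 0.64 log2 in fed plants against 1.32 in untreated plants, so the lower ratio at 5 h went with the larger difference in untreated plants. The 10 h level differed from the 5 h level by -2.24 log2 in fed plants and by -0.45 in untreated plants. The 24 h level differed from the 10 h level by 2.36 log2 in fed plants and by 0.69 in untreated plants. The measured 10 h trough of AT1G66180 thus lay mostly in the fed channel. The signal there was within 2 background SD, so the sizes of the fed steps to and from 10 h are uncertain. AT2G05920 differed between 5 and 10 h by -0.18 log2 in fed plants and by 0.34 in untreated plants. Between 10 and 24 h it differed by -0.16 in fed plants and by -0.55 in untreated plants. Its steps from 2 to 5 h were 0.04 and -0.01. AT1G03220 differed between 2 and 5 h by -1.39 log2 in fed plants and by -0.67 in untreated plants, and between 5 and 10 h by 0.67 and 0.84. These steps of AT1G03220 depend on the rescaling of the arrays. Before it, its untreated spots minus background read 641 and 630 at 2 h, 599 and 496 at 5 h, and 468 and 671 at 10 h. Its fed spots minus background read 1536 and 1274 at 5 h and 1237 and 1340 at 10 h. The labels do not say when untreated plants were harvested.

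**Figure D2:**
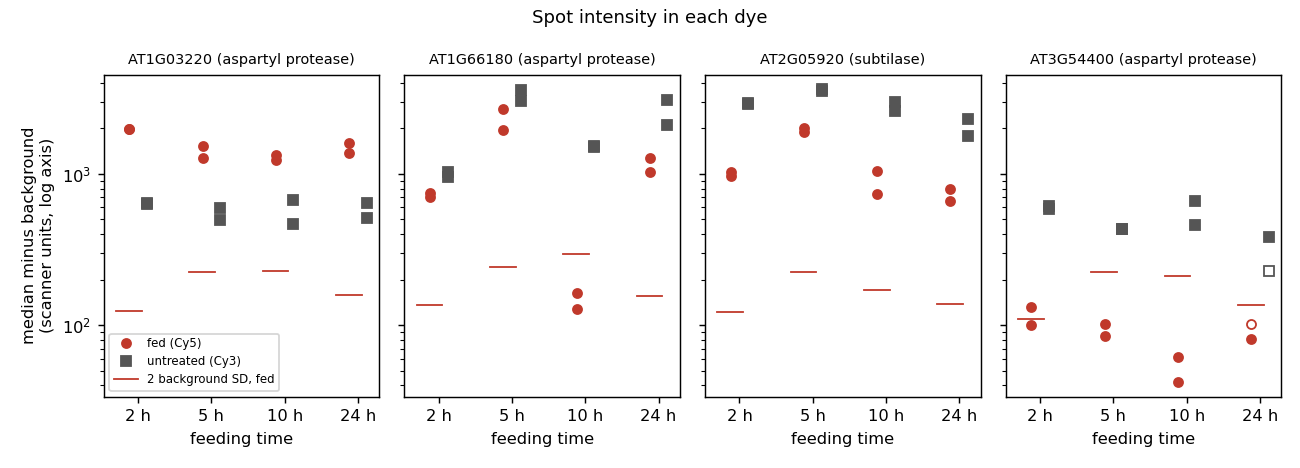
Spot intensity minus local background (vertical log axis, scanner units) for the 4 genes at each feeding time (horizontal axis). Filled points are usable spots, open points spots of lower quality, and the red line marks 2 background SD in the fed dye; for AT3G54400 fed spots lie under that line at 5, 10 and 24 h, and for AT1G66180 at 10 h.

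Against all tested clones, AT3G54400 ranked 8 from the lowest of 708 at 2 h, 12 of 792 at 5 h, 22 of 726 at 10 h and 5 of 709 at 24 h. From 5 h on these ranks describe measured values whose fed dye was not above background, and so does that of AT1G66180 at 10 h. AT2G05920 ranked 28, 68, 57 and 51 from the lowest at the same times. AT1G66180 stood at rank 228 from the lowest at 2 h, at 103 at 5 h, at 24 at 10 h and at 70 at 24 h. AT1G03220 ranked 96 from the highest at 2 h, 216 at 5 h, 230 at 10 h and 135 at 24 h. In a limma fit over the 4 arrays, all 4 genes were among the clones past an adjusted p threshold of 0.05, as were 47.0% of tested clones, 22.6% higher and 24.4% lower in fed plants. Since the genes were chosen on this contrast, nothing is read from their count. Among clones measured at all times, 29.8% were above 0 at every time, as AT1G03220 was, and 36.9% below 0 at every time, as the other 3 genes were. AT3G54400 and AT2G05920 were at least 2-fold lower at every time, as were 6.75% of these clones.

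At single times the same reading holds. With the loess zero, AT1G03220 was at least 2-fold higher at 2 h and at 24 h, as were 19.6% and 19.5% of tested clones. Its 24 h ratio of 1.02 log2 lay at that threshold, with spots at 0.96 and 1.07, and fell under 2-fold in some of the alternative settings but not in others. AT1G03220 stayed under 2-fold at 5 and 10 h, where 19.8% and 21.8% of clones were past it. AT3G54400 and AT2G05920 were at least 2-fold lower at 2 h, as were 12.6% of clones. All 3 lower genes passed 2-fold at 5, 10 and 24 h, against 16.2%, 22.6% and 16.2% of clones. AT1G66180, AT2G05920 and AT1G03220 had their lowest ratio at 10 h, and so did 36.7% of the clones measured at all times. The lowest measured ratio of AT3G54400 was also at 10 h, but with the mean of pixels it was at 24 h, and its fed dye was dim at both. The 10 h ratio of AT1G66180 lay at least 2-fold below both its 5 h and its 24 h ratio, a shape found in 4.94% of these clones.

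**Figure D3:**
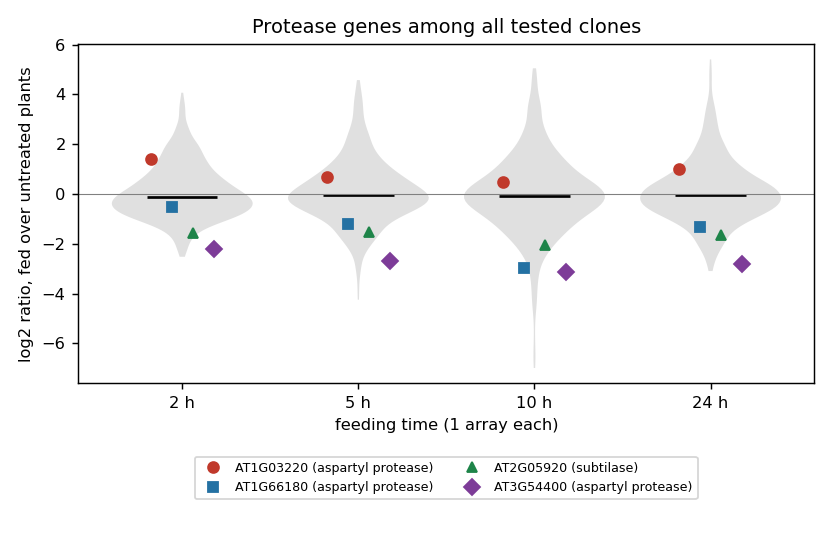
Distribution of log2 ratios of fed over untreated plants (vertical axis) over all tested clones at each feeding time (grey shapes with the median as a black line), with the 4 protease genes as coloured symbols. AT3G54400 sits in the lower tail at every time, AT1G66180 reaches it at 10 h, and AT1G03220 sits above the median at every time.

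The contrast between the gene that was higher and those that were lower does not depend on a constant zero point per array. AT1G03220 exceeded the mean of AT3G54400, AT1G66180 and AT2G05920 by 2.82, 2.47, 3.22 and 2.94 log2 at 2, 5, 10 and 24 h, on average by 2.86 ± 0.31 (SD over the 4 arrays). It was 2.68 log2 with the median clone, lambda DNA or alpha tubulin as zero. These differences use the measured values of AT3G54400 and of AT1G66180 at 10 h, where the fed dye was dim. The smallest gap to a single gene was that to AT1G66180 at 5 h, at 1.86 log2. The gap to AT2G05920, measured in both dyes at all times, was 2.97, 2.20, 2.55 and 2.68 log2. The 3 lower genes differed among themselves as well, by 1.69 log2 between the highest and the lowest of them at 2 h and by 1.09 at 10 h. Measured by the distance between their 4 ratios, AT1G66180 and AT2G05920 were closest to each other (1.49 log2) and AT3G54400 and AT1G03220 farthest apart (7.20 log2).

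Whether each ratio changed steadily with time is another contrast, the slope on log2 hours. No slope of the 4 genes passed in limma: the estimates per doubling of time were -0.34 ± 0.27 for AT1G66180, -0.19 ± 0.16 for AT3G54400, -0.11 ± 0.17 for AT1G03220 and -0.06 ± 0.15 for AT2G05920 (moderated SE), with limma adjusted p between 0.803 and 0.966. Of 716 clones 0 passed (0%), and 67 had an unadjusted p under 0.05. Without the 24 h array, AT1G66180 passed with a slope of -1.04 ± 0.23 (limma adjusted p = 0.0192), as did 56 of 655 clones, and that slope rests on the 10 h value with a dim fed channel. The 2 h and 5 h arrays share a slide, and so do the 10 h and 24 h arrays, per the file headers. Within these slides AT1G03220 averaged 1.03 and 0.76 log2, AT2G05920 -1.55 and -1.85, AT3G54400 -2.44 and -2.97, and AT1G66180 -0.85 and -2.15. Late against early feeding and slide against slide cannot be told apart.

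The zero point sets how far the 3 lower genes lie below 0. The median tested clone lay 0.66, 1.62, 1.19 and 1.13 log2 above the bacteriophage lambda DNA spots at 2, 5, 10 and 24 h, and 0.84, 1.31, 0.94 and 1.71 above the alpha tubulin spots. Relative to lambda DNA, 537 clones passed as higher and 25 as lower, against 182 and 197 with loess, and relative to alpha tubulin 538 and 17. AT1G03220 was above 0 at every time relative to lambda DNA, at 2.24, 2.18, 1.67 and 2.11 log2, and relative to alpha tubulin, at 2.42, 1.87, 1.42 and 2.70, where its highest time was 24 h and not 2 h. AT3G54400 was below 0 at every time relative to lambda DNA (-1.13, -0.68, -1.19 and -0.67) and relative to alpha tubulin (-0.94, -0.99, -1.44 and -0.08). AT1G66180 stood at 0.29, 0.38, -1.99 and -0.27 log2 relative to lambda DNA and at 0.48, 0.07, -2.24 and 0.31 relative to alpha tubulin, so 10 h was the only time at which it lay below 0 under both. AT2G05920 was lowest at 10 h in both, and stood at -0.80, 0.04 and -0.56 at 2, 5 and 24 h relative to lambda DNA. Relative to alpha tubulin it stood at -0.61, -0.27, -1.25 and 0.03 at the 4 times. In the authors' deposited table AT1G66180 was at -3.20 log2 at 10 h and at 0.06, 0.47 and -0.24 at 2, 5 and 24 h. AT1G03220 stood there at 2.13, 2.34, 1.37 and 2.31 log2 at 2, 5, 10 and 24 h, so its highest time was 5 h.

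**Figure D4:**
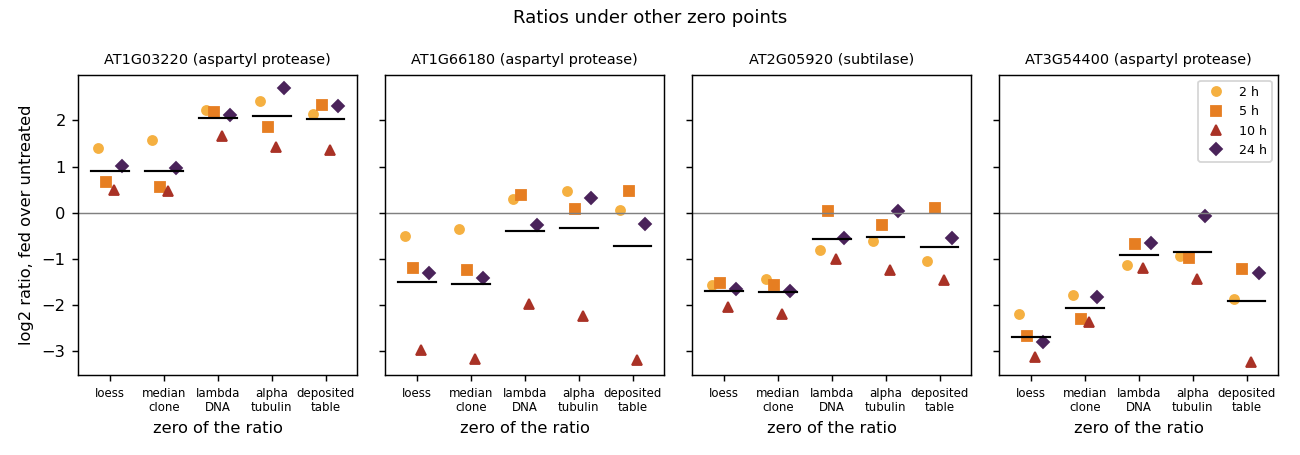
Log2 ratio of fed over untreated plants (vertical axis) for each gene with the zero set by loess, the median clone, lambda DNA or alpha tubulin, and in the authors' deposited table (horizontal axis). Symbols are the 4 feeding times and black lines their mean; AT1G03220 is above 0 at all times in each, and AT1G66180 is below 0 at 10 h in each.

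The calls among the other proteases and protease inhibitors on the array depended on the zero point. Of 146 further genes listed, 10 had a named clone and 6 could be tested. With the loess zero, 1 was higher in fed plants, 0 were lower and 5 did not pass in the limma fit, with a median of the means of 0.12 log2 against -0.04 over all tested clones. That is 16.7% higher and 0% lower, against 22.6% and 24.4% of all tested clones. With the zero at lambda DNA, at alpha tubulin or in the authors' deposited table, all 6 had positive means past the threshold, at 0.99 to 3.57, 1.04 to 3.58 and 0.90 to 3.98 log2 (highest limma adjusted p = 0.00614, 0.0482 and 0.0467), where most clones also lay above 0. The one called with the loess zero was AT2G43530, which encodes a small defensin-like protein of the trypsin inhibitor type, at 2.03 ± 0.22 log2 on 3 of 3 arrays (moderated SE, limma adjusted p = 0.00111). Untreated plants were not above background for AT2G43530 at these times, so it passed the filter through the fed dye alone and has only a bound for its fold. A clone above background in the fed dye alone tends to lie high. Its mean was also 2.03 log2 without the filter on dim clones, so the call of AT2G43530 did not rest on that filter. With the loess zero and the background correction used here, its bounds on the fold higher in fed plants were 3.41 at 5 h, 2.88 at 10 h and 3.27 at 24 h. They set the untreated dye at its dimmest clone above background, or at the clone's own value where that is higher. At 2 h it had no usable spot.

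The further aspartyl protease with values, AT5G19120, was at 1.65 log2 at 2 h, 0.37 at 5 h and 0.04 at 10 h. The mean of AT5G19120, 0.69 ± 0.36 (moderated SE), missed the threshold with a limma adjusted p of 0.161. It had no usable spot at 24 h. The mean of AT5G19120 was 0.20 log2 without the 2 h array and 1.01 without the 10 h array. AT5G37540, a close relative of AT1G66180, had a clone on the array, but none of its spots was usable at any time, with fed spots between 282 and 416 and untreated spots between 170 and 277, so the pair cannot be compared. The subtilase ATSBT5.2 stood at -0.96 on 1 spot at 2 h, -0.33 at 5 h and 1.47 at 24 h, where AT2G05920 stayed between -2.05 and -1.53. The mean of ATSBT5.2, 0.06 ± 0.47 (moderated SE), missed the threshold with a limma adjusted p of 0.928.

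Among the cysteine proteases, GAMMA-VPE, a vacuolar processing enzyme that matures vacuolar proteins and acts in cell death, stood at -1.13, -0.47, 0.35 and 0.64 log2 at 2, 5, 10 and 24 h. AT4G16190, of the papain family, stood at -1.08, -0.32, 0.27 and 0.31. For neither did the mean pass (limma adjusted p = 0.713 and 0.557), nor the slope over time (0.52 ± 0.15 and 0.40 ± 0.15 log2 per doubling, limma adjusted p = 0.387 and 0.478). The serine carboxypeptidase-like gene scpl48 was at -0.08, 0.15, 0.06 and 0.56 and did not pass (limma adjusted p = 0.494). AT3G19390 and scpl35 had 1 usable spot each, at 1.11 log2 at 5 h and 0.91 at 24 h, and MAP1C, a methionine aminopeptidase, had none.

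**Figure D5:**
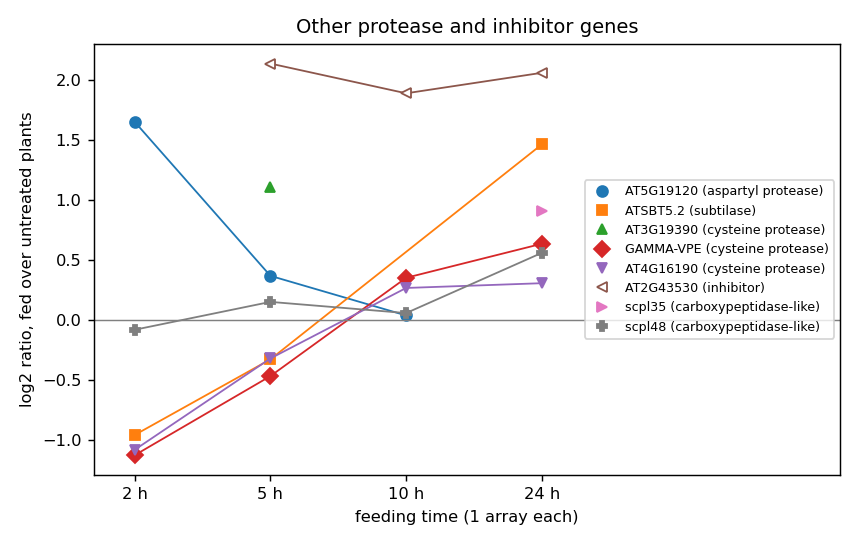
Log2 ratio of fed over untreated plants (vertical axis) of the 8 other listed protease and inhibitor genes with a value, at each feeding time (horizontal axis, 1 array each). Open symbols mark times at which untreated plants were not above background; AT2G43530 lies near 2 log2 where measured, and ATSBT5.2, GAMMA-VPE and AT4G16190 run from about -1 at 2 h to values above 0 at 24 h.

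The genes with the most similar courses were taken by the smallest distance between the 4 log2 ratios, among 178 other named clones measured at all times, as a description. Nearest to AT2G05920 were the leucine-rich repeat gene AT3G20820 (distance 0.52 log2), FUG1 (0.76), a chloroplast translation factor, and the pectin methylesterase gene AT3G49220 (0.86). Nearest to AT1G66180 were AT1G68440 (1.02), the acid phosphatase gene AT5G44020 (1.02) and AT3G20820 (1.07). AT1G68440 stood at -0.56, -2.08, -2.68 and -0.91 at 2, 5, 10 and 24 h and returned toward 0 at 24 h as AT1G66180 did, while AT5G44020 was still at -2.31. For AT3G54400 the smallest distances were those to DRT100 (1.31), AT3G49220 (1.56) and AT2G45180 (1.60). These distances use its measured ratios at 5, 10 and 24 h, where its fed dye was not above background. Those of AT1G66180 use its 10 h ratio, which has the same limit. Nearest to AT1G03220 were NDB2 (0.56), a mitochondrial NADH dehydrogenase, AlaAT1 (0.63), an alanine aminotransferase, and AT4G18950 (0.82). NDB2 stood at 0.98, 0.30, 0.47 and 1.02 log2 and, like AT1G03220, was higher at 2 and 24 h than at 5 and 10 h.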

How the data were processed

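Polyadenylated RNA was labelled and hybridized to 4 spotted cDNA arrays, 1 per feeding time, per the labels' protocols. Per the file headers, ScanArray Express gave each deposited intensity, a spot's foreground and its local background in both dyes, and the percent of saturated pixels, which was 0 for the genes followed here. The deposited table of the whole series holds a natural log value per clone. Its scale and direction are not stated; against the scanner ratios its columns had slopes of 0.962 to 0.988 and correlations of 0.992 to 0.998, so it was taken for a natural log ratio of the fed over the untreated dye, with column medians of 0.301, 1.20, 0.606 and 0.861 at 2, 5, 10 and 24 h and centring unknown. It served as an alternative, with 8 values at its floor left out.

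Intensities were background-corrected (normexp, offset 50) and normalized by loess on good clone spots (flag 3), with R 4.3.3 and limma 3.58.1, and a clone's spots were averaged. A clone was tested when at least 50% of its spots exceeded background by 2 SD in 1 dye on at least 2 arrays. The mean and the slope on log2 hours (values on at least 3 arrays) were fitted across all clones with eBayes and Benjamini-Hochberg adjustment, and the fits were tested on simulated data. Spots with gene names (18) or bare numbers (10) were not used. Gene names come from the platform's table, matched by identifier to TAIR10.1 for 414 of 415 clones.

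The genes and lists were chosen with earlier results of these data known. The genes named are the 4 proteases, each listed protease or inhibitor with a clone, and the 3 most similar clones per gene. The number of arrays, 1 per time, limits the precision. P-values rest on the spread between times, and a fixed dye effect per clone cannot be told apart from feeding. The header of the 5 h array gives 2 different Cy3 gains (69 in the gain field, 60 in the image name).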

Additional observations from a re-analysis of the deposited data

Results flagged for a closer look

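With the loess zero, ATSBT5.2, GAMMA-VPE, AT4G16190 and scpl48 had ratios of opposite sign at 2 and 24 h in all usable spots. ATSBT5.2 had 1 usable spot at 2 h, and scpl48 lay near 0 at 2 h (-0.08 log2). The share of all tested clones with such a change was not counted, so nothing is read from the number of these genes. The change was not tested between these times alone. The ratio at 24 h exceeded that at 2 h by 2.42 log2 for ATSBT5.2, by 1.76 for GAMMA-VPE, by 1.39 for AT4G16190 and by 0.641 for scpl48. The root markers PYK10 and BGLU22 stood at 2.86 and 1.82 log2 at 24 h and at -0.27 and -0.58 at 2 h, while BGLU21 stood at 0.60, 1.08 and 0.57 at 5, 10 and 24 h with no value at 2 h. The part of such signal was not tested. The 2 h and 24 h arrays lie on different slides, which cannot be told apart from time.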

How the results depend on the processing

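Each of the 4 genes kept the sign of its mean under the 14 alternatives that changed its value (both filters changed none), and the gap between AT1G03220 and the other genes stayed between 2.19 and 3.62 log2. The mean of AT3G54400 moved most, to -3.48 log2 with no offset, -4.43 with plain subtraction, -2.02 with no background correction, -2.07 with median centring, -1.74 with print-tip loess, -3.10 with mean pixels and -1.81 with all flags; its fed channel was dim at 3 times. The gap was 3.22, 3.62 and 2.46 under the 3 background settings and 2.19 with print-tip loess, where AT2G05920 was at -1.31 and AT1G03220 at 0.55, with 0.27 at 5 h and 0.062 at 10 h. Relative to lambda DNA the means of AT3G54400, AT1G66180, AT2G05920 and AT1G03220 were -0.92, -0.40, -0.58 and 2.05, and relative to alpha tubulin -0.86, -0.34, -0.52 and 2.10. In the deposited table AT3G54400, AT2G05920 and AT1G03220 were at -1.91, -0.74 and 2.03. At single times AT1G66180 turned positive relative to lambda DNA at 2 and 5 h (0.29 and 0.38), relative to alpha tubulin at 2, 5 and 24 h (0.48, 0.072 and 0.31) and in the deposited table at 2 and 5 h (0.058 and 0.47), and AT2G05920 did so at 5 h (0.043, lambda DNA), 24 h (0.029, alpha tubulin) and 5 h (0.11, deposited table). The means of GAMMA-VPE and AT4G16190 turned positive, at 0.99 and 1.04 relative to lambda DNA, 1.04 and 1.09 relative to alpha tubulin and 0.90 and 0.97 in the deposited table. All 6 other proteases tested passed as higher under these 3, AT5G19120, ATSBT5.2 and scpl48 included, against 1 of 6 under the other alternatives but the strict filter, which left 3 genes and called 0. ATSBT5.2 was at -0.10 with mean pixels. Slopes turned positive for AT3G54400 (0.044 print-tip loess, 0.082 lambda DNA, 0.19 alpha tubulin, 0.10 all flags), for AT2G05920 (0.014 print-tip loess, 0.093 alpha tubulin, 0.015 deposited table, 0.17 with the slide as a block), for AT1G03220 (0.035 alpha tubulin) and for AT1G66180 (0.36 with the slide as a block). Leaving out 1 array gave slopes of -1.04 to 0.0071 for AT1G66180 and -0.39 to 0.17 for AT1G03220, and means of -0.64 to 0.57 for ATSBT5.2, -0.41 to 0.17 for GAMMA-VPE and -0.38 to 0.085 for AT4G16190. It left 222 to 320 clones past the threshold for the mean and 0 to 56 for the slope, with 222 without the 5 h array and 56 without the 24 h array. Without eBayes moderation 172 clones passed for the mean, and 2, 2 and 1 passed for the slope with lambda DNA, alpha tubulin and the deposited table. The cause of these shifts was not tested. The slide block for single genes and the other proteases' alternatives were chosen after seeing the data. No paired analysis was possible because each feeding time has 1 array, so no replicate number is shared between times; each ratio already sets fed against untreated plants on 1 array.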
